A study of Mus musculus with 4 samples.

Results

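The 7 genes described here make or regulate the major histocompatibility complex (MHC) class II molecule: Cd74, H2-Aa, H2-Ab1, H2-Eb1, H2-DMa, H2-DMb1 and Ciita. They were chosen by name, are 7 of the 31053 genes in the deposited files, and were read in epithelial cells. MHC class II is the cell surface complex through which B cells, dendritic cells and macrophages show peptides from engulfed protein to helper T cells. H2-Aa with H2-Ab1, and H2-Ea with H2-Eb1, code for its alpha and beta chains, and the invariant chain Cd74 fills the groove until peptide arrives. The H2-DM heterodimer, made from H2-DMa and H2-DMb1, then exchanges an invariant chain fragment for peptide, and the coactivator Ciita switches the whole set on, in many cell types after interferon gamma. Epithelia can also carry class II, so the question asked here was which mammary epithelial cells held RNA of which of these genes, and whether the amounts differed between the treatments.

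The cells came from the fourth mammary glands of FVB mice of genotype Tfap2cfl/fl / Krt5-CreERT2. Both groups carried the floxed Tfap2c alleles and a tamoxifen-inducible Cre driven by the Krt5 promoter, which is active in basal cells. The mice received corn oil, the vehicle, or 4OHT (4-hydroxytamoxifen) from week 4 and were harvested at week 9. Each group had 2 libraries of droplet 3′ RNA sequencing. The design text speaks of 2 mice per condition without tying a mouse to a library. The p-values between treatments therefore measure the spread between libraries, which may be technical. Tests between cell classes compare them within each library, and their p-values measure how far such differences vary between libraries. The FVB strain differs from the reference strain in its MHC genes, and the effect of that on counting was not tested.

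The libraries held 3546 to 5545 cells and 17351950 to 22017878 unique molecular identifiers (UMIs), each counting 1 captured RNA molecule. Of 18223 cells, 13825 fell into an epithelial class by keratin and luminal genes: 7028 basal cells, 5629 luminal progenitor cells and 1168 hormone-sensing cells. The class names held against epithelial markers that the rule did not use. All 4 markers of luminal progenitors (Kit, Elf5, Aldh1a3, Cd14) were higher in that class than in both others, and all 6 of hormone-sensing cells (Esr1, Pgr, Prlr, Areg, Foxa1, Cited1) were highest there. Of 4 fibroblast markers (Col1a1, Col1a2, Col3a1, Dcn), 1 was called higher in hormone-sensing than in basal cells, and 1 against luminal progenitor cells. Over all genes tested 26.7% and 20.8% were called higher. In each comparison only 1 of the 4 had a log2 difference above 0. Only 40 cells were leukocytes by Ptprc, Laptm5 and Coro1a, 16 in corn oil replicate 2 and 24 in 4OHT replicate 1, with 0 in the other libraries. Pairs of libraries shared 18 to 36 cell barcodes. Tfap2c, the gene targeted in the study, stood at 389 and 285 CPM (UMIs of the gene per 1000000 UMIs of the summed class) in basal cells of the corn oil libraries, and at 285 and 325 CPM in those labelled 4OHT. Its log2 difference was -0.08 (SE 0.25, edgeR quasi-likelihood adjusted p = 0.999), so the counts do not show the deletion. A 3′ count can still score a transcript that lost an internal exon, and every treatment result below therefore compares libraries labelled 4OHT and corn oil.

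No sequence of Cd74 is shown. Ciita lies at chr16:10480059-10528418 on the plus strand of GRCm38. The others lie within the MHC on chromosome 17: H2-DMa at chr17:34119541-34139101 and H2-DMb1 at chr17:34153072-34160230 (both plus), H2-Ab1 at chr17:34257689-34269419 (plus), H2-Aa at chr17:34282744-34287823 (minus) and H2-Eb1 at chr17:34305867-34316674 (plus). Classical class II promoters carry a Y box, an inverted CCAAT element bound by NF-Y, close to the start. The 250 bases before the RefSeq start (GRCm38.p6) are shown for a chain gene and for both chains of H2-DM, because these pairs parted in the results. Capitals mark ATTGG, the reverse complement of CCAAT.
H2-Aa, chr17:34287824-34288073, minus strand: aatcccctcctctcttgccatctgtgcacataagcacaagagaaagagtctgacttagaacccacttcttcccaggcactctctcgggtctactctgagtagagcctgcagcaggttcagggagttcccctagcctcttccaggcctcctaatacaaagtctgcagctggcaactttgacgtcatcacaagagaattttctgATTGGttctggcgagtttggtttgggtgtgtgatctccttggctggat
H2-DMb1, chr17:34152941-34153190, plus strand: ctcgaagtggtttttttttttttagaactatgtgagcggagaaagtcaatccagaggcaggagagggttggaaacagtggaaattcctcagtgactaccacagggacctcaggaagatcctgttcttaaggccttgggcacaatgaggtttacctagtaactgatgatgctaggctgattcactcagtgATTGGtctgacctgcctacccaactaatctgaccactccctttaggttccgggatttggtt
H2-DMa, chr17:34122582-34122831, plus strand: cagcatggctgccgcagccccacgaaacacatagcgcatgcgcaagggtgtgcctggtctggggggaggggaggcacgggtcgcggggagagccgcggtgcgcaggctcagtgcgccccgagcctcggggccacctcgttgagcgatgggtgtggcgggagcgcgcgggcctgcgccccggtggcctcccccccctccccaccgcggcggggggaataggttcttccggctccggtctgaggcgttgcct
The element sits 48 bases before the start of H2-Aa and 61 before that of H2-DMb1, in both as TGATTGG. In H2-Eb1, at 59 bases, it also reads TGATTGG. The H2-DMa window shown has no CCAAT on either strand. The window of a second RefSeq start of that gene has 1 ATTGG, 198 bases before that start. Both H2-DMa windows lie inside the gene interval given above. The H2-DMb1 window overlaps its own gene interval, and the marked element lies inside that interval. These windows therefore do not settle whether an H2-DMa or H2-DMb1 promoter carries the element. Searching both strands of 32851 RefSeq promoter windows, CCAAT was found in 33.8% of them and TGATTGG in 7.23%. The table held 4 of the 7 members.

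The classical chains were close to absent from epithelium. H2-Aa, the alpha chain, had 8 and 35 UMIs in basal cells of corn oil replicates 1 and 2, and 11 and 6 in those of 4OHT replicates 1 and 2. Those are 0.989, 5.35, 1.85 and 0.911 CPM. Of the 35 UMIs of corn oil replicate 2, 17 sat in 1 cell, which also held 5 of Cd74, 6 of Igkc and 1 of Coro1a. H2-Ab1, the beta chain, gave 7, 19, 14 and 20 UMIs in basal cells, in the same order of libraries, or 0.865, 2.91, 2.36 and 3.04 CPM. In luminal progenitor cells H2-Aa had 1 to 13 UMIs per library and H2-Ab1 had 1 to 14. H2-Eb1, the beta chain of the second isotype, had 0 UMIs in basal cells of every library, which allows up to 0.371 to 0.505 CPM, and 0 to 2 in each luminal class. Ciita, the coactivator, had 3 UMIs in 7028 basal cells, 1 in 5629 luminal progenitor cells and 0 in 1168 hormone-sensing cells. Neither H2-Eb1 nor Ciita passed the filter on low counts in any comparison, so 5 of the 7 members could be tested at most. By contrast, the leukocytes of corn oil replicate 2 and 4OHT replicate 1 held H2-Aa at 919 and 1620 CPM and H2-Ab1 at 650 and 1281 CPM. The 40 leukocytes held 2 UMIs of H2-Eb1, against 0 in 7028 basal cells, so they held more of it per cell. Beside those 2 they held 132 of H2-Aa, so H2-Eb1 was scarce in leukocytes too. Its low counts are therefore not particular to epithelium. They held 0 UMIs of Ciita, but so few cells cannot be set against the 3 UMIs in 7028 basal cells.

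Cd74, the invariant chain, was found in a small share of basal cells in all 4 libraries and was lower in luminal progenitor cells. Over all libraries 215 of 7028 basal cells held 332 UMIs, or 1.54 per cell with any, against 31 of 5629 luminal progenitor cells with 66 UMIs, or 2.13 per cell with any. In corn oil replicates 1 and 2 the basal cells held 92 and 124 UMIs, and in 4OHT replicates 1 and 2 they held 43 and 73, which are 11.4, 19.0, 7.24 and 11.1 CPM. Luminal progenitor cells had 6, 18, 36 and 6 UMIs, or 0.826, 2.97, 4.28 and 0.966 CPM. Every library had more in its basal than in its luminal progenitor cells, and the 2 sets of levels did not overlap. The level in luminal progenitor cells was 6.56-fold lower (log2 -2.71, SE 0.79, edgeR quasi-likelihood with library as a block, adjusted p = 0.00754). In this comparison 55.1% of 11998 genes tested were called, and of the 5 members tested 1 was higher and 1 lower. The call was lost without corn oil replicate 1 (log2 -2.36, adjusted p = 0.0566) and without the library block (log2 -2.14, adjusted p = 0.0908). Part of the spread lay in single cells, since 5, 10 and 21 of the luminal progenitor UMIs of corn oil replicates 1 and 2 and 4OHT replicate 1 came from 1 cell each.

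**Figure D1:**
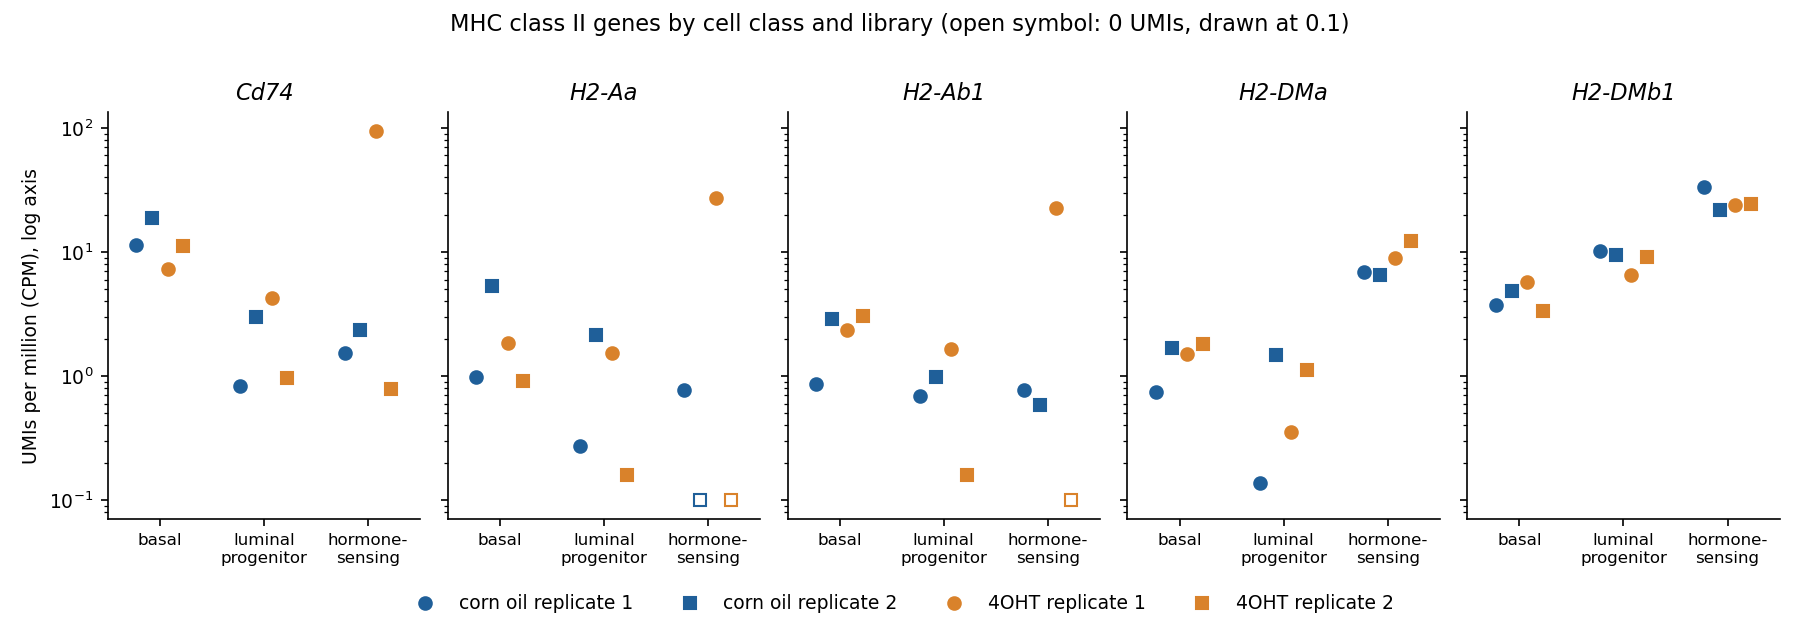
Levels of the 5 members with more than a few UMIs, in CPM of the summed class (log axis), by epithelial class, with 1 point per library (blue corn oil, orange 4OHT, circle replicate 1, square replicate 2). Open symbols are sums with 0 UMIs, drawn at 0.1. Cd74 lies highest in basal cells except for 1 hormone-sensing sum at 94.6 CPM, and H2-DMb1 lies lowest in basal cells (3.34 to 5.73 CPM) and highest in hormone-sensing cells (21.8 to 33.2 CPM).

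In hormone-sensing cells Cd74 had 2, 4, 147 and 2 UMIs. All 147 of 4OHT replicate 1 sat in a single cell of 9191 UMIs, which also carried 42 UMIs of H2-Aa, 31 of H2-Ab1 and 2 of H2-Eb1. The same cell held 28 of the 28 UMIs of Tyrobp and 26 of the 27 of Ctss that the class had in that library, both genes of myeloid cells, and only 6 luminal keratin UMIs. With that cell, Cd74 came out 6.21-fold higher in hormone-sensing than in luminal progenitor cells (log2 2.64, SE 0.86, adjusted p = 0.0194), a call that DESeq2 did not make (log2 1.47, adjusted p = 0.297). The value turned to -0.78 (adjusted p = 0.286) once cells with a UMI of Ptprc, Laptm5 or Coro1a were left out, and to -0.26 without 4OHT replicate 1. Against basal cells the log2 difference was -0.08 (adjusted p = 0.939) with the cell. It was -3.37 (adjusted p = 5.07e-06) without cells holding those leukocyte UMIs. H2-Aa moved in the same way, from 1.04 (adjusted p = 0.300) to -3.24 (adjusted p = 0.0123).

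Of the 3 epithelial classes, basal cells also had the largest share of cells with a Cd74 UMI, before and after depth was made equal. Before thinning, 3.48%, 4.09%, 2.11% and 2.48% of basal cells had a Cd74 UMI, against 0.155% to 0.847% of luminal progenitor cells and 0.417% to 1.21% of hormone-sensing cells. Each cell was then thinned to 2000 UMIs, which left out 34 to 379 shallower basal cells per library. The basal shares became 1.57% (exact 95% interval 1.00 to 2.35%), 2.80% (2.08 to 3.69%), 1.07% (0.585 to 1.79%) and 1.95% (1.36 to 2.70%). In luminal progenitor cells the thinned shares were 0.0801% to 0.613%, and in hormone-sensing cells 0% to 0.920%. The intervals of basal and luminal progenitor cells overlapped in 4OHT replicate 1 alone, while those of basal and hormone-sensing cells overlapped in every library but 4OHT replicate 2. Endothelial cells lay above basal cells before thinning in 3 libraries, at 7.69% in corn oil replicate 2, 6 of 30 cells in 4OHT replicate 1 and 3.77% in 4OHT replicate 2, with 0 of 4 cells in corn oil replicate 1. Among fibroblasts of corn oil replicate 2, which should lack class II, 1 of 74 cells had a Cd74 UMI and 0 of 59 after thinning, which allows up to 5.08%, and leukocytes of the same library had one in 5 of 9. Median depths in that library were 3172 UMIs for basal cells, 4780 for luminal progenitor cells, 3237.5 for fibroblasts and 2255.5 for leukocytes. Intervals and limits cover counting error only.

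**Figure D2:**
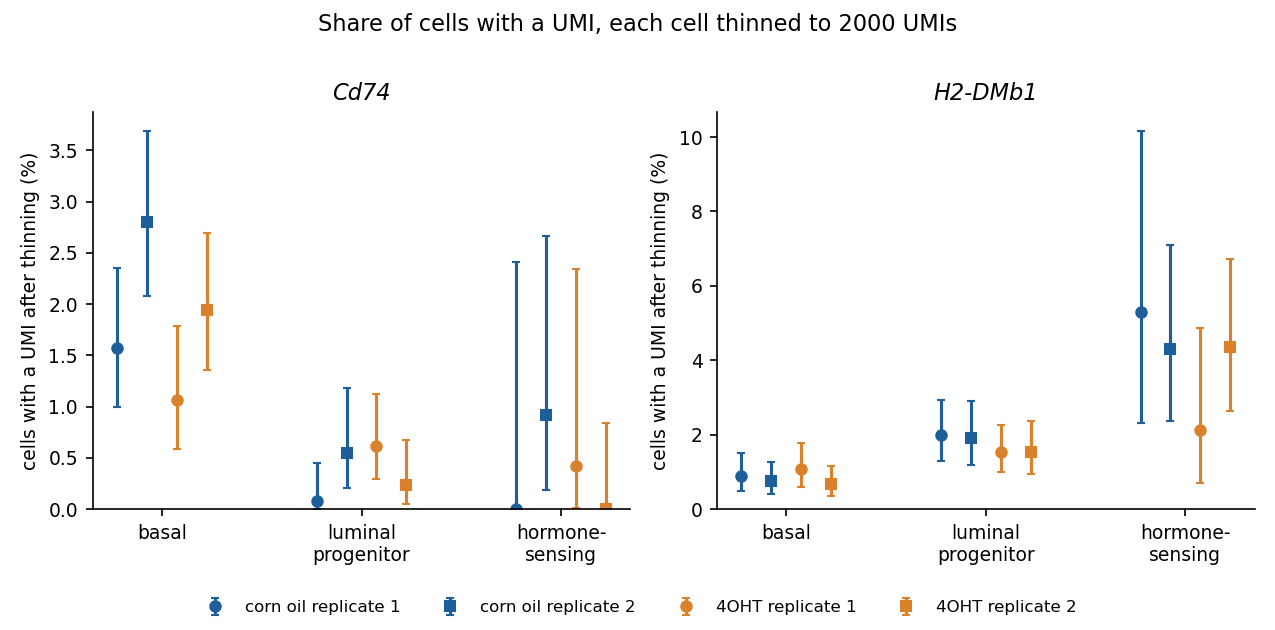
Percent of cells with at least 1 UMI of Cd74 (left) or H2-DMb1 (right) after each cell was thinned to 2000 UMIs, by class and library; bars are exact 95% intervals. Basal cells lead for Cd74 (1.07% to 2.80%), and hormone-sensing cells lead for H2-DMb1 (2.12% to 5.30%).

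The basal Cd74 signal was carried by few cells, some of which held several molecules. Of the basal cells with a Cd74 UMI, 18 of 52 in corn oil replicate 1 and 21 of 79 in corn oil replicate 2 had at least 2. Cells with 3 or more numbered 10 and 12 for corn oil, 2 and 2 for 4OHT. Of these, 1 cell of corn oil replicate 2 had a UMI of Ptprc, Laptm5 or Coro1a. A UMI of any listed leukocyte gene was found in 1 of the 10 and 4 of the 12 corn oil cells and in 0 of the 4OHT cells. Each had at least 7 UMIs of the basal keratin and actin genes. The richest in corn oil replicate 1 carried 10 Cd74 UMIs beside 107 of those basal genes, and 0 of H2-Aa, H2-Ab1 and the 3 leukocyte genes. A UMI of H2-Aa or H2-Ab1 was found in 5.77%, 6.33%, 16.7% and 13.0% of basal cells with Cd74, against 0.831% to 1.40% of the other basal cells. In the leukocytes, 6 of 6 and 2 of 2 cells with Cd74 had 1 of these chains.

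The leukocytes give a scale for these counts. In the libraries with leukocytes, each class's UMIs of Ptprc, Laptm5 and Coro1a were multiplied by the ratio of Cd74 to those genes in leukocytes. Leukocyte RNA of that make-up would bring 7.83 of the 124 basal Cd74 UMIs of corn oil replicate 2 (6.32%) and 2.5 of the 43 of 4OHT replicate 1 (5.81%). Over 14 and 11 scales, that sum of 3 genes being 1 of them and the rest single leukocyte genes, the medians were 11.1 and 6.43 UMIs. The upper ends, 768 and 37.2 UMIs, came from Trbc2, whose RNA was itself abundant in basal cells (8.42 to 24.2 CPM). For luminal progenitor cells the same ratio gave 32.6% and 9.26% of the Cd74 UMIs. These ratios leave out 18 cells of no class in corn oil replicate 2. The 18 were chosen for at least 10 UMIs of Cd74, H2-Aa, H2-Ab1 and H2-Eb1 together. They held 277 UMIs of Cd74 beside 12 of the 3 leukocyte genes and 261 of 4 B cell genes. Scaled by their leukocyte UMIs, RNA of that make-up would bring 92.3 of the 124 basal Cd74 UMIs (74.5%), from 4 basal UMIs of those genes, but 385% of the luminal progenitor ones. Scaled by their B cell UMIs it would bring 43.5 of the 124 (35.1%), and 59.0% of the luminal progenitor ones. Both scales were partly set by how the cells were chosen. Leukocytes were chosen for at least 2 UMIs of the 3 genes. Of the 18 cells, 17 had fewer than 5 keratin UMIs, so by the same rule they held fewer than 2. The 18 were also chosen for UMIs that include Cd74. None of these values is therefore an estimate of the leukocyte share. Basal cells of corn oil replicate 1 and 4OHT replicate 2, the libraries with 0 leukocytes, held 1 and 0 UMIs of the 3 leukocyte genes beside 92 and 73 of Cd74. Summed B cell markers were, like Cd74, higher in basal than in luminal progenitor cells of every library. Their order across the basal sums was another: they were highest in 4OHT replicate 2, Cd74 in corn oil replicate 2. Cd79a, Cd79b, Ms4a1 and Igkc together stood at 2.47, 6.27, 4.88 and 8.80 CPM in basal cells, against 0.644 to 1.67 in luminal progenitor and 0 to 1.18 in hormone-sensing cells, with Ms4a1 at 0 throughout. Igkc, an antibody light chain gene, made up 10 to 55 of the basal UMIs and was lower in luminal progenitor cells (log2 -3.05, SE 0.50, adjusted p = 6.45e-05). Of the basal cells with Cd74, 0 of 52, 2 of 79, 0 of 30 and 1 of 54 also had an Igkc UMI (0%, 2.53%, 0% and 1.85%). Among the other basal cells the shares were 0.416%, 1.24%, 0.863% and 1.79%, so these few cells do not set the 2 groups apart. The part of B cell RNA in the Cd74 difference was not tested.

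The peptide exchange factor followed another order, with hormone-sensing cells on top. H2-DMb1, the beta chain of H2-DM, had 30, 32, 34 and 22 UMIs in basal cells (3.71, 4.89, 5.73 and 3.34 CPM) and 74, 57, 55 and 57 in luminal progenitor cells (10.2, 9.42, 6.55 and 9.18 CPM). Hormone-sensing cells had 43, 37, 37 and 62 UMIs, or 33.2, 21.8, 23.8 and 24.4 CPM. The 3 sets did not overlap, and each library had the same order. H2-DMb1 was 5.81-fold higher in hormone-sensing than in basal cells (log2 2.54, SE 0.23, adjusted p = 6.20e-08), 2.40-fold higher than in luminal progenitor cells (log2 1.26, SE 0.21, adjusted p = 0.000124), and 2.42-fold higher in luminal progenitor than in basal cells (log2 1.28, SE 0.22, adjusted p = 0.000105). The cell with 147 Cd74 UMIs supplied 8 of the 37 UMIs of its library, and 29 UMIs (18.8 CPM) remained without its richest cell.

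H2-DMa, the alpha chain, was also highest in hormone-sensing cells. It had 9, 11, 14 and 31 UMIs there (6.94, 6.47, 9.01 and 12.2 CPM), against 0.741 to 1.82 CPM in basal and 0.138 to 1.49 CPM in luminal progenitor cells. The hormone-sensing sums lay above all 8 others. H2-DMa was 9.71-fold higher in hormone-sensing than in luminal progenitor cells (log2 3.28, SE 0.42, adjusted p = 8.17e-06) and 5.96-fold higher than in basal cells (log2 2.58, SE 0.39, adjusted p = 2.35e-05). Between luminal progenitor and basal cells the log2 difference of -0.70 (SE 0.45) did not pass (adjusted p = 0.201). Each of the 5 called differences of the H2-DM genes stayed called under all 13 alternatives. Read against the background, 59.2% of genes were called between hormone-sensing and basal cells (26.7% higher) and 44.9% between hormone-sensing and luminal progenitor cells (20.8% higher). Of the 5 members tested, 2 were higher in the first comparison and 3 in the second, 1 of the 3 being Cd74 through its single cell. Without 4OHT replicate 1 the first count was 5, H2-Aa, H2-Ab1 and Cd74 being lower, and without 4OHT replicate 2 the second was 5.

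**Figure D3:**
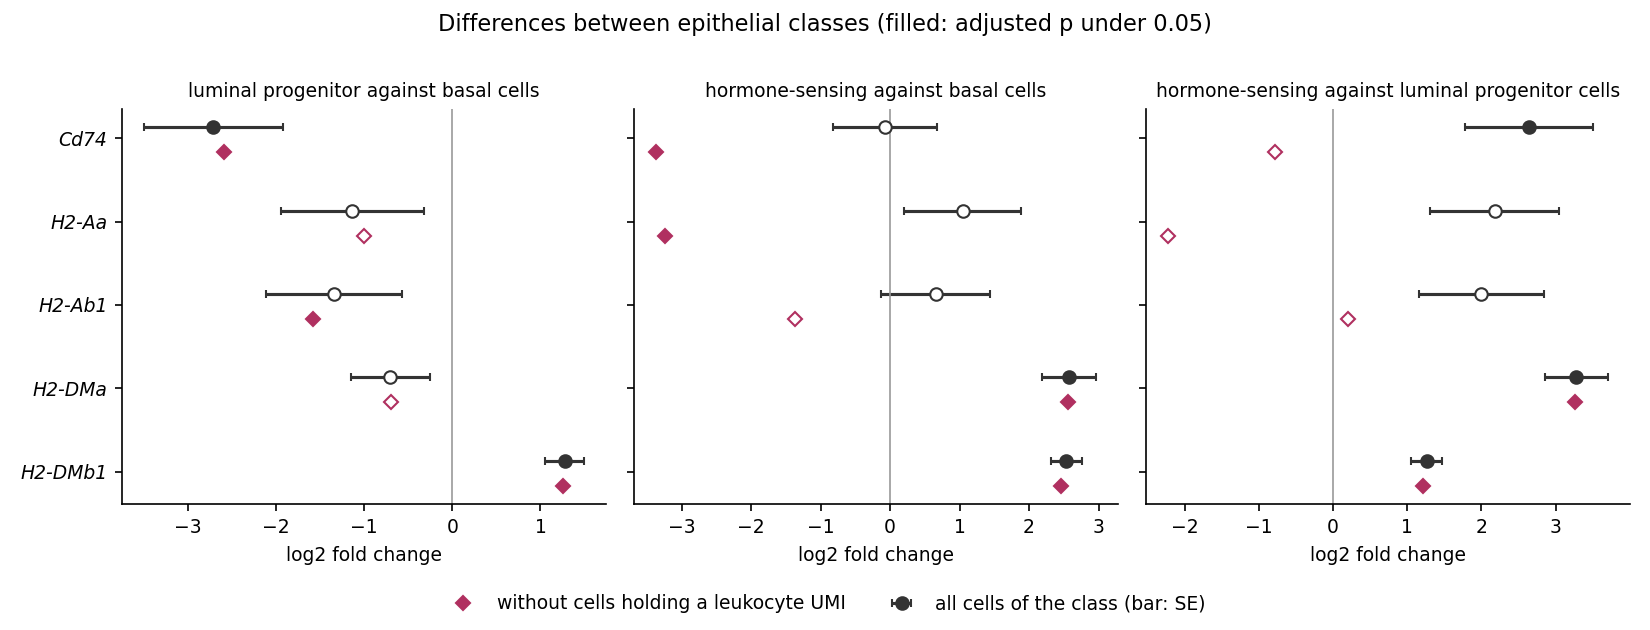
Log2 fold change of the 5 tested members between classes: circles are fits on all cells of each class with the standard error, diamonds are fits without cells that held a Ptprc, Laptm5 or Coro1a UMI, and filled symbols have an adjusted p under 0.05. The H2-DM genes keep their place, while Cd74 in hormone-sensing against luminal progenitor cells goes from 2.64 to -0.78.

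The H2-DMb1 order held for cells as for sums. Before thinning, 22.5%, 10.6%, 10.0% and 12.8% of hormone-sensing cells had a H2-DMb1 UMI, against 2.99% to 5.19% of luminal progenitor and 1.01% to 2.39% of basal cells. Hormone-sensing cells were deeper, with medians of 4745.5 to 8258 UMIs. After thinning to 2000 UMIs the shares were 5.30% (exact 95% interval 2.31 to 10.2%), 4.29% (2.37 to 7.10%), 2.12% (0.691 to 4.87%) and 4.36% (2.64 to 6.72%). Those of luminal progenitor cells were 1.53% to 2.0% and those of basal cells 0.667% to 1.07%. The intervals of both luminal classes overlapped in every library but 4OHT replicate 2, and those of hormone-sensing and basal cells overlapped in 4OHT replicate 1 alone. No UMI of H2-DMb1 or H2-DMa was found in the 40 leukocytes. At their depth this allows 67.2 CPM of either gene in corn oil replicate 2 and 53.4 CPM in 4OHT replicate 1. Both limits lie above the level of hormone-sensing cells in the same library. The same leukocytes held 231 Cd74 UMIs. Hormone-sensing cells held 155 Cd74 UMIs, 147 of them in the single rich cell, and 179 H2-DMb1 UMIs, 8 of them in that cell. H2-DMb2, a close copy of H2-DMb1, had at most 0.644 CPM in any epithelial sum, and reads could have been split between both copies.

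Both chains of H2-DM tended to be found in the same hormone-sensing cells. H2-DMa was detected in 11.8%, 14.3%, 12.5% and 14.0% of hormone-sensing cells with a H2-DMb1 UMI, against 4.27%, 2.03%, 5.09% and 5.64% of those without. The share was higher in all 4 libraries, with 3 to 8 cells behind each of the first values and the single rich cell among the 3 of 4OHT replicate 1. Cells with H2-DMb1 were also deeper, at medians of 5526 to 8691 UMIs against 4658.5 to 8185 UMIs. Some class I genes stood apart between the same 2 sets of cells, in a split made after the data were seen and without cells holding a Ptprc, Laptm5 or Coro1a UMI. Psmb9, an immunoproteasome subunit, was at 168, 93.2, 164 and 121 CPM in cells with H2-DMb1 and at 66.7, 49.6, 61.2 and 90.4 CPM in the rest. B2m, the class I light chain, H2-D1 and Psmb8 were likewise higher in cells with H2-DMb1 in 4 of 4 libraries. So was Cited1, a cofactor of hormone-sensing cells (364 to 1026 CPM against 239 to 739 CPM). Mif and Ctsl were lower in 4 of 4. The rest of the 8 class I genes and 6 hormone-sensing markers are not described for this split. The share of all genes with the same order in 4 of 4 libraries was not taken. The part of depth in these differences was not tested.

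The class I pathway, which loads peptides from within the cell and shares its promoter elements with class II, was higher in hormone-sensing cells. Of 8 genes, 7 were called higher than in basal cells (median log2 1.02, against -0.10 over all genes tested) and 5 higher than in luminal progenitor cells (median 0.90, against -0.03). None was called lower in either. Over all genes tested 26.7% and 20.8% were called higher in these comparisons. Psmb9 ranged from 54.7 to 94.9 CPM in hormone-sensing cells, 17.4 to 37.2 in luminal progenitor and 6.53 to 23.4 in basal cells (log2 2.64 against basal cells, 1.53 against luminal progenitor cells). The other named differences from basal cells were Psmb8 (1.72), Tap2, a chain of the peptide transporter (1.38), B2m (1.27), H2-D1 (0.77) and Tapbp (0.50). Against luminal progenitor cells they were Tap2 (1.09), B2m and Psmb8 (1.02 each) and H2-D1 (0.79). Between luminal progenitor and basal cells 2 of 8 were higher, Psmb9 (1.10) and Psmb8 (0.69), where 25.9% of all genes were. Tapbp lost its call without 4OHT replicate 1 (adjusted p = 0.0842), corn oil replicate 2 (adjusted p = 0.0744) or the library block (adjusted p = 0.144), and Psmb8 between luminal progenitor and basal cells without the block (adjusted p = 0.0813).

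The other genes of the class II pathway did not follow H2-DM. Of 20 listed, 9 were tested. In hormone-sensing against basal cells 3 were higher and 4 lower (median log2 -0.25, against -0.10 over all genes, of which 59.2% were called). Against luminal progenitor cells 0 were higher and 4 lower (median -1.02, against -0.03, with 44.9% called). Cd44, a partner of Cd74 in signalling, lay at 5.40 to 19.3 CPM in hormone-sensing cells, 73.5 to 179 in luminal progenitor and 89.3 to 125 in basal cells. Its log2 difference was -2.95 against basal and -3.51 against luminal progenitor cells. Icam1, the adhesion ligand for T cells, followed at -2.79 and -1.92, Ctsl, a lysosomal protease that degrades the invariant chain in thymic epithelium, at -2.13 and -1.02, and Mif, the cytokine that binds Cd74, at -1.59 and -1.05. The proteases Ctsd (1.12) and Ctsb (0.35) were higher in hormone-sensing than in basal cells, the latter with no call left without 4OHT replicate 1 (adjusted p = 0.0657), with no filter on low counts (0.0798), or when the class needed 10 times the other keratin sum (0.0865). In luminal progenitor against basal cells 5 were higher and 4 lower, where 55.1% of all genes were called. The lower ones were Ctsl (-1.12), Icam1 (-0.87), Mif (-0.54) and Lgmn (-0.53), and Ctsd (0.91) and Cd44 (0.57) were among the higher. Lgmn lost its call without 4OHT replicate 2 (adjusted p = 0.202) or corn oil replicate 1 (0.0771), and Cd44 without 4OHT replicate 1 (0.0984), corn oil replicate 1 (0.0852) or the library block (0.0902) and by DESeq2 (0.0713). Mif stood at -0.19 (adjusted p = 0.278) when the class needed 10 times the other keratin sum. H2-Oa, which restrains H2-DM in B cells, had 13, 11, 3 and 6 UMIs in luminal progenitor cells and 0, 2, 0 and 0 in basal cells (log2 3.94, SE 0.79, adjusted p = 0.000461), and is named after its values were seen.

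The genes that read class II promoters passed the filter on low counts, which Ciita did not: all 9 listed were tested between classes. Nfyb, a subunit of the NF-Y factor that binds the CCAAT element, stood at 84.9 to 119 CPM in basal cells, 28.3 to 44.7 in luminal progenitor and 28.8 to 51.6 in hormone-sensing cells. Against basal cells its log2 differences were -1.28 and -1.35. Rfxap, a subunit of the RFX complex, was lower in hormone-sensing cells, at 10.9 to 18.9 CPM, than in basal (-1.32) and luminal progenitor cells (-1.03). Creb1, which binds the X2 box, was higher in luminal progenitor than in basal cells (0.94) and lower in hormone-sensing than in luminal progenitor cells (-0.60). The latter call was lost without 4OHT replicate 1 (adjusted p = 0.0576) or replicate 2 (0.0602). Atf1, a relative of Creb1, was lower in hormone-sensing cells at log2 -0.53 and -0.48, with adjusted p of 0.0851 to 0.138 against basal cells when 4OHT replicate 1 or 2 or corn oil replicate 1 was left out. Against luminal progenitor cells its adjusted p was 0.179 without 4OHT replicate 1 and 0.236 without 4OHT replicate 2. Both calls were also lost without the library block (0.0737 and 0.157) and at 10 times the other keratin sum (0.229 and 0.0648), and the second by DESeq2 (0.0622). Counts over the list were 2 higher and 1 lower in luminal progenitor against basal cells (median 0.01), 2 higher and 3 lower in hormone-sensing against basal (median 0.00), and 1 higher and 3 lower against luminal progenitor cells (median -0.26). Over all genes tested 55.1%, 59.2% and 44.9% were called in these comparisons, in that order, so the list did not stand out by its number of calls.

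Genes of the interferon gamma response, a list that includes its receptor chains and kinases, were not higher as a list in hormone-sensing cells. Any link of this list to the H2-DM levels was not tested. Of 23 listed, 20 were tested. In hormone-sensing cells 4 were higher and 10 lower than in basal cells (median log2 -0.53, against -0.10 over all genes, of which 59.2% were called), and 4 higher and 9 lower than in luminal progenitor cells (median -0.35, against -0.03, with 44.9% called). Ifi47, an interferon-induced GTPase, had 0.394 to 5.79 CPM in hormone-sensing cells and 13.7 to 116 in basal cells (log2 -3.68, and -2.66 against luminal progenitor cells). Ifngr1, the ligand-binding receptor chain, was lower at -0.97 and -1.73, and Gbp2 at -0.72 and -1.21. Ifngr2, the other chain, was higher at 0.86 and 0.46. Gbp7 was lower than in basal cells (-0.90), and the kinase Jak1 was lower than in luminal progenitor cells (-0.37). In luminal progenitor against basal cells 7 were higher and 4 lower (median 0.02, against -0.04, with 55.1% called), with Ifi47 at -1.02, Ifngr1 at 0.77, Gbp2 at 0.49 and Ifngr2 at 0.40. Without 1 library some of these were not called. Gbp7 in hormone-sensing against basal cells had an adjusted p of 0.0532 without corn oil replicate 1. In luminal progenitor against basal cells, Gbp2 had 0.0563 without 4OHT replicate 1, and Ifngr2 had 0.0527, 0.122 and 0.261 without 4OHT replicate 1, 4OHT replicate 2 and corn oil replicate 2. In hormone-sensing against luminal progenitor cells, Ifngr2 had 0.140, 0.0880 and 0.0734 without 4OHT replicates 1 and 2 and corn oil replicate 1. Jak1 had 0.135, 0.152 and 0.106 without 4OHT replicate 2 and corn oil replicates 1 and 2. Without the library block, calls were lost for Ifi47 (0.175), Gbp2 (0.439) and Ifngr2 (0.139) in luminal progenitor against basal cells, for Gbp7 (0.125) and Gbp2 (0.251) in hormone-sensing against basal cells, and for Gbp2 (0.0766), Ifngr2 (0.146) and Jak1 (0.0859) against luminal progenitor cells. At 10 times the other keratin sum they were lost for Ifi47 (0.0861) and Gbp2 (0.189) in luminal progenitor cells, and for Gbp7 (0.141) and Gbp2 (log2 -0.42, 0.270) in hormone-sensing against basal cells. Ifngr2 in luminal progenitor against basal cells was also not called by DESeq2 (0.0685), with no filter (0.0594) or at 2000 UMIs per cell (0.0589). Against luminal progenitor cells it was not called with no filter (0.111) or without the 5% deepest cells (0.131).

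Leukocyte genes outside the rule were mixed. Of 17, 5 were tested, and in luminal progenitor against basal cells 2 were higher and 2 lower, in hormone-sensing against basal cells 3 higher and 1 lower, and against luminal progenitor cells 1 higher and 1 lower. Over all genes tested 55.1%, 59.2% and 44.9% were called in these comparisons, in that order. Cytip lay at 27.2 to 56.7 CPM in luminal progenitor cells and at most 0.674 in basal cells. Trbc2 lay at 8.42 to 24.2 CPM in basal and 9.84 to 18.7 in hormone-sensing cells, while Cd3d, Cd3e and Cd3g were at 0 in all 3 classes of corn oil replicate 1 and 4OHT replicate 2. Both fall outside the rule for named genes and are named after their values were seen.

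Between treatments no member passed the test in any class. In basal cells 5 members were tested and 0 called by edgeR's quasi-likelihood test, where 0% of 10788 genes were called. At an unadjusted p under 0.05 lay 4.31% of genes and 0 of the 5 members. Cd74 averaged 15.2 ± 5.37 CPM (SD, n = 2) in corn oil and 9.16 ± 2.71 CPM (SD, n = 2) in 4OHT. The higher 4OHT value, 11.1 CPM, lay just under the lower corn oil value, 11.4 CPM. The log2 difference was -0.66 (SE 0.42, adjusted p = 0.999). H2-Aa stood at -1.17 (SE 0.86), H2-Ab1 at 0.59 (SE 0.66), H2-DMa at 0.53 (SE 0.62) and H2-DMb1 at 0.10 (SE 0.41). The median of the 5 was 0.10, against -0.02 over all genes tested.

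In luminal progenitor cells 3 members were tested and 0 called, with 0% of 10120 genes called and 1.64% at an unadjusted p under 0.05 (0 of the 3). Cd74 was at 0.61 (SE 0.77), H2-DMb1 at -0.22 (SE 0.36) and H2-Aa at -0.28 (SE 1.03). In hormone-sensing cells only the H2-DM genes passed the filter, with H2-DMa at 0.64 (SE 0.46) and H2-DMb1 at -0.20 (SE 0.34), and 0 of 2 called. There 0.0132% of 7589 genes were called, which is Ctsr alone (log2 4.29, adjusted p = 0.0383). At an unadjusted p under 0.05 lay 3.16% of genes and 0 of the 2 members. Without 4OHT replicate 2, whose loss leaves the library with the rich cell alone in its group, 3 members were called, and without corn oil replicate 2 it was 1. The difference of the 4OHT effect between luminal progenitor and basal cells called 0 of 5 members and 0% of 11434 genes, and 3.75% of genes but 0 of the 5 members lay at an unadjusted p under 0.05. There Cd74 stood at 1.37 (SE 0.78, adjusted p = 1). Without 4OHT replicate 1 that value was -0.37.

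**Figure D4:**
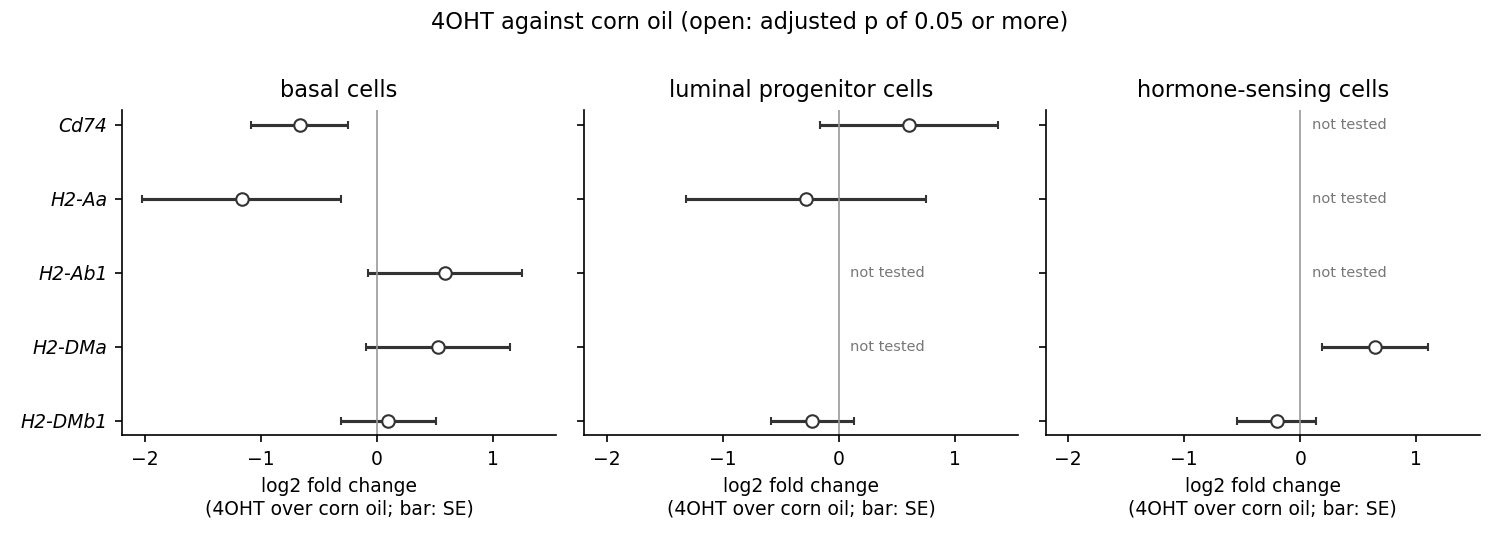
Log2 difference of 4OHT over corn oil for each member tested, with its standard error, in basal, luminal progenitor and hormone-sensing cells; open circles have an adjusted p of 0.05 or more. All 10 values are open, and the largest in size, H2-Aa in basal cells, is -1.17 with an SE of 0.86.

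The other lists gave 0 calls between treatments in each class by edgeR's quasi-likelihood test on all libraries, but not under every other setting. In basal cells Iigp1 was lower by DESeq2 (adjusted p = 9.00e-06), with no filter (9.26e-06), and without 4OHT replicate 1 (1.34e-05), corn oil replicate 1 (0.000127) or corn oil replicate 2 (0.00506). Gbp7 was lower by DESeq2 (0.00154), with no filter (0.000982), and without 4OHT replicate 1 (0.00804) or corn oil replicate 1 (0.00980). Psmb8 was lower without corn oil replicate 1 (0.0450). In luminal progenitor cells Igtp was lower with no filter (3.39e-05), without 4OHT replicate 1 (0.00154) and without corn oil replicate 1 (1.57e-06), and so was Irgm2 (0.0256, 0.0103 and 0.00473). In hormone-sensing cells Ido1 was higher by DESeq2 (0.0411), with no filter (0.000165), without 4OHT replicate 2 (1.39e-05) and without corn oil replicate 2 (0.0134). In basal cells the median log2 difference was -1.03 over 19 interferon gamma genes (9 of them under an unadjusted p of 0.05) and -0.73 over 8 class I genes (6 of them), against -0.02 over all genes. It was 0.01 over 8 other class II pathway genes and -0.22 over 8 class II transcription genes. The values of smallest p, none passing on all libraries, were Iigp1 (-2.30) and Gbp7 (-1.60), Psmb8 (-1.04) and Psmb9 (-1.10), Ctsl (-0.58) and Icam1 (0.30), Rfx5 (0.88) and Nfyb (0.25), and, of the leukocyte genes, Trbc2 (-1.09) and Igkc (1.03). In luminal progenitor cells the medians were -0.95 over 18 interferon gamma genes and -0.30 over 8 class I genes. Smallest in p were Igtp (-2.12) and Irgm2 (-1.85), Psmb9 (-0.65) and Tap1 (-0.74), H2-Oa (-1.39) and Icam1 (-0.47), Nfyb (0.44) and Nfyc (0.26), and Cytip (-0.24). In hormone-sensing cells the medians were -0.15 over 13 interferon gamma genes and 0.00 over 8 class I genes. Smallest in p there were Ido1 (2.06), Tap1 (-0.58) and Psmb9 (0.20), Cd44 (0.82) and Ctsd (0.35), Nfyb (0.52) and Atf1 (-0.52), and Trbc2 (0.06). For the difference of the effect between luminal progenitor and basal cells they were Ctsl (0.65) and Icam1 (-0.72), Atf1 (0.48) and Creb1 (0.39), Cxcl10 (-0.91) and Ifi47 (0.86), H2-K1 (0.71) and Psmb8 (0.68), and Trbc2 (0.88) and Igkc (-0.84).

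Luminal progenitor cells with 2 or more member UMIs were too few to describe. After thinning to 2000 UMIs there were 3, 2, 1 and 2 such cells in the 4 libraries, all chosen without a leukocyte UMI, against 1062 to 1591 cells with 0. The test of these sums called 164 of 5893 other genes (2.78%), 162 lower (2.75%) and 2 higher (0.0339%). The 10 of the largest fold among the lower ones, Anxa1, Cd14, Rsrp1, Adm, Chil1, Klf5, Zfand5, Ywhah, Scd1 and Gm11361, had 0 UMIs in all 8 cells together, so no fold is given. The 2 higher, Cx3cr1 and Mau2, were higher in 1 of 4 libraries each.

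Over the 12 sums of 3 classes in 4 libraries, the genes most like the summed members were Ccser2 (Pearson r = 0.93 of log2(CPM + 1)), Dcn (0.91), Tmem50a (0.91), St3gal1 (0.91) and Dctn2 (0.89), among 4141 genes whose mean reached 20 CPM. The 12 sums share libraries and depth, and the hormone-sensing sum of 4OHT replicate 1, which holds the single rich cell, is the highest of that profile. Ccser2 had 73.4 CPM there and 21.7 to 46.3 CPM in the other 11 sums. Dcn, a fibroblast marker, had 243 and 50.6 CPM in hormone-sensing cells of corn oil replicates 1 and 2. It had 1325 and 237 CPM in those of 4OHT replicates 1 and 2. Basal cells had 7.75 to 54.4 CPM of it and luminal progenitor cells 9.49 to 40.3 CPM. The source of this RNA was not tested. Most like H2-DMb1 alone, chosen after the data were seen, were Dynlt3 (0.99), Hdac11, a histone deacetylase (0.98), AC149090.1 (0.98), Cmc1 (0.98) and Glul, glutamine synthetase (0.98). Hdac11 had 125 to 190 CPM in hormone-sensing cells, 9.88 to 26.3 in luminal progenitor cells and 5.44 to 10.1 in basal cells.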

How the data were processed

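Per the submitters' processing notes, reads were demultiplexed with bcl2fastq and counted with Cell Ranger 3.0.1 on mm10. The authors deposited a matrix for each library whose values are unnormalized UMI counts, whole numbers for every gene in every cell. Cells with at least 1000 UMIs were classed by summed UMIs of Krt5, Krt14, Krt17 and Acta2 (basal) against Krt8, Krt18 and Krt19 (luminal): at least 5, and more than 3 times the other sum. Luminal cells were hormone-sensing where Ly6d, Fxyd2 and Gpx3 gave at least 3 UMIs and more than Wfdc18, Csn3 and Ltf, otherwise luminal progenitor. Leukocytes had at least 2 UMIs of Ptprc, Laptm5 and Coro1a, endothelial cells 3 of Pecam1, Cdh5 and Egfl7, and fibroblasts 5 of Col1a1, Col1a2 and Dcn, all with fewer than 5 keratin UMIs. No doublet caller was used; dropping the 5% deepest cells was an alternative.

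Counts were summed per library and class and tested with edgeR 4.0.16 (R 4.3.3; TMM, filterByExpr, quasi-likelihood test, Benjamini-Hochberg over all genes tested, threshold 0.05). Class contrasts used 12 sums with library as a block. Shares were taken on cells sampled down to 2000 UMIs, their 95% intervals being Clopper-Pearson (exact), and a count of 0 allows 3 counts. Alternatives included DESeq2 1.42.0, other filters and each library left out. The code was tested on simulated data.

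The members and gene lists were chosen with earlier results of these data known. Of each list, genes passing the test at a mean of at least 20 CPM were named, at most 6 by size of fold, and otherwise the 2 of smallest p. In the split of luminal progenitor cells the 10 of largest fold were named, and for likeness the 5 highest correlations. Ifi30, H2-Ea-ps and Cxcl11 were not analysed here. A gene that this rule also names is not reported here. Positions are from GENCODE M21 on GRCm38 and promoters from RefSeq.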

Additional observations from a re-analysis of the deposited data

Results flagged for a closer look

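Endothelial cells, which enter no comparison above, carried class II chains in both libraries labelled 4OHT and, at fewer UMIs, in corn oil replicate 2. H2-Aa averaged 136 CPM in the 4OHT libraries, with 245 CPM in the first replicate and 27.3 CPM in the other. In the corn oil libraries it stood at 0 and 20.3 CPM. H2-Ab1 also averaged 136 CPM, from the same 21 and 7 UMIs, against 0 and 5.08 CPM. What marked them is a level above that of the controls in cells outside the main measurement. Both genes were picked for 4OHT levels above both corn oil levels, so that order was set by the choice. Corn oil replicate 1 had only 4 endothelial cells, so its 0 allows up to 217 CPM, and the difference between treatments was not tested. In 4OHT replicate 1, 6 of 30 endothelial cells had a Cd74 UMI, and 6 of those 6 also had H2-Aa or H2-Ab1. Cd74 had 40 UMIs in these 30 cells and 8 in the 106 endothelial cells of 4OHT replicate 2. The 65 of corn oil replicate 2 held 11, more per cell than in 4OHT replicate 2.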

How the results depend on the processing

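Libraries were few and UMIs per member low. Depth limits the leukocyte values of H2-DM, H2-Eb1 and Ciita. Members called between treatments numbered 0 in basal and luminal progenitor cells under every alternative run. In hormone-sensing cells the count of 0 became 3 with no filter on low counts and ran from 0 to 3 with 1 library left out. Between luminal progenitor and basal cells it went from 2 to 4 with no filter and to 1 with no library block (1 to 2 with 1 library left out). Between hormone-sensing and basal cells it went from 2 to 4 when the class needed 10 times the other keratin sum, and to 4 without cells with a Ptprc, Laptm5 or Coro1a UMI (2 to 5). Between hormone-sensing and luminal progenitor cells it went from 3 to 5 with no filter and to 5 without the 5% deepest cells (2 to 5). The split of luminal progenitor cells gave 433 genes at 1 or more member UMIs, 67 thinned to 1000 UMIs and 19 to 145 with 1 library left out; 3 or more member UMIs could not be fitted and was not run. The mean share of basal cells with Cd74 was 2.19% in corn oil (1.31% thinned to 1000 UMIs, 3.78% unthinned) and 1.51% in 4OHT (0.647% and 2.30%). That of hormone-sensing cells with H2-DMb1 was 4.80% in corn oil (2.69% and 16.6%) and 3.24% in 4OHT (1.30% and 11.4%).

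Some log2 values changed sign. In hormone-sensing against basal cells, Cd74 was 0.96 with no library block and 0.068 without the 5% deepest cells. H2-Aa was -0.41 by DESeq2, -3.28 at 10 times and -3.24 without leukocyte-UMI cells, and H2-Ab1 was -0.39, -1.07 and -1.37 in that order. Against luminal progenitor cells Cd74 was -1.57 at 10 times and -0.78 without leukocyte-UMI cells, and H2-Aa -2.16 and -2.23. Between treatments, Cd74 in luminal progenitor cells was -0.32 without leukocyte-UMI cells, and Trbc2 in hormone-sensing cells was -0.0032, -0.29 and -0.095 at 10 times, without the 5% deepest and without leukocyte-UMI cells. With 1 library left out, the lone library of a group is assumed to vary like the others, and signs changed within these ranges. Between treatments in basal cells they were H2-Aa -1.97 to 0.57, H2-Ab1 -0.098 to 1.76, H2-DMa -0.0063 to 1.29 and H2-DMb1 -0.21 to 0.39. In luminal progenitor cells they were Cd74 -0.77 to 1.72, H2-Aa -2.57 to 1.68, H2-DMb1 -0.55 to 0.061 and Cytip -0.63 to 0.078. In hormone-sensing cells they were H2-DMb1 -0.40 to 0.036, Ctsd -0.012 to 0.63, Psmb9 -0.056 to 0.52 and Trbc2 -0.42 to 0.45. For hormone-sensing against basal cells they were Cd74 -3.17 to 0.63, H2-Aa -3.34 to 2.09 and H2-Ab1 -2.50 to 1.60. Against luminal progenitor cells they were Cd74 -0.26 to 3.20, H2-Aa -2.04 to 3.08 and H2-Ab1 -1.01 to 2.42. The difference of the Cd74 effect ranged from -0.37 to 2.48. The cause was not tested in any of these.

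With the replicate number as a block, 0 members were called between treatments in each of the 3 classes, but Iigp1 (log2 -2.34, adjusted p = 0.00199), Gbp7 (-1.62, 0.00199) and Trbc2 (-1.06, 0.0337) were called in basal cells. The numbers are shared by label only, and same-numbered libraries deviated together with correlations of 0.57, 0.32 and 0.22 in basal, luminal progenitor and hormone-sensing cells, over 2 pairs.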

Other observations

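UMIs of Cd74, H2-Aa, H2-Ab1 and H2-Eb1 together were most numerous, in corn oil replicate 2, in cells that the rule put in no class. These held 508, against 212 in leukocytes and 178 in basal cells, though leukocytes held more per cell. There, 18 cells had at least 10 UMIs of these 4 genes, 17 of them with fewer than 5 keratin UMIs. Together the 18 held 277 UMIs of Cd74, 123 of H2-Aa, 57 of H2-Ab1, 4 of H2-DMa, 2 of H2-DMb1 and 2 of Ciita. Of the 18, 17 had a UMI of a B cell gene (Cd79a, Cd79b, Ms4a1 or Igkc), with 261 such UMIs in all. They were shallow, with a median of 1567 UMIs per cell. In 4OHT replicate 1 there were 2 such cells, and 0 in the other libraries.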
